A study of Mus musculus with 14 samples.

Results

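mSCC-38 is a mouse cell line derived from a skin squamous cell carcinoma. The comparison described here set cells transfected with Si2AK against untransfected cells of the same line (NT). Si2AK is an siRNA against AK144841, a long non-coding RNA, and is one of 2 used in the series. The 7 arrays concerned, 3 of Si2AK and 4 of NT, were chosen by their transfection labels out of 14 in the series. The other 7 arrays were 3 of a control siRNA (SiC, 2 of which carry NC in their titles) and 4 of the other siRNA (Si1AK). All cells were grown in 35 mm dishes in DMEM with serum. The siRNA groups were transfected with the lipid reagent RNAimax and harvested at 72 h, and the labels give neither a sham transfection nor a time for NT. The comparison therefore holds whatever the lipid and any siRNA do, which SiC shares, together with what Si2AK does. Every sample came from the same cell line, and the labels do not state that replicates are independent cultures. The p-values therefore measure only how these samples scatter, which may be technical scatter. No probe was annotated as AK144841. Its level was not analysed here, and no value checks the knockdown.

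Keratinocytes carry a rapid alarm programme. Damage, microbial signals or stress activate NF-kB and MAP kinase pathways, and the cells then make chemokines that draw neutrophils, cytokines such as interleukin 1 and GM-CSF, and ligands of the EGF receptor. A second programme, the integrated stress response, begins when kinases phosphorylate the initiation factor eIF2alpha. General translation falls, translation of the transcription factor ATF4 rises, and ATF4 with its partners switches on genes for amino acid supply and for stress recovery. Proliferating cells also make the DNA replication and mitosis genes in step with the cell cycle, under E2F and FOXM1 factors.

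The values are 1-colour Agilent array signals on a log2 scale relative to the 75th percentile of each array, so a level of 0 is the signal of a bright probe and a difference of 1 is 2-fold. Median processed signals were between 23.5 and 58.7 on 12 arrays, 107.5 on Si2AK replicate 2 and 270.9 on SiC replicate 1. On those 12 arrays 51.7% to 59.3% of probes stood well above background, against 84.5% on Si2AK replicate 2 and 90.2% on SiC replicate 1. Results were therefore repeated without Si2AK replicate 2. Slide 1 carried NT replicates 1 and 2 with Si2AK replicates 1 and 2, and slide 2 carried NT replicates 3 and 4 with Si2AK replicate 3. The cells carried the transcripts of squamous epithelium. Of 15 squamous and simple epithelial markers, 12 were well above background on all 7 arrays, among them Krt5, Krt14, Trp63 and Itga6. Cdh1, Dsg3 and Krt19 were not among the 12. Some markers of other cell types, such as Pecam1, Cd68 and Tyr, were also well above background on all 7 arrays. Standing above background alone therefore does not tell cell types apart. The summed linear signal of the 14 tested epithelial markers was between 1530 and 1791 times the 75th percentile value in NT and between 1688 and 1739 times in Si2AK.

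Across 20559 genes, 1606 were higher in Si2AK than in NT (7.81%) and 1356 were lower (6.6%), at a limma adjusted p below 0.05. Of these, 333 rose and 122 fell by at least 2-fold. Counts of list members given below are to be read against the shares of 7.81% and 6.6%. Without Si2AK replicate 2 the shares were 5.69% higher (1169 genes) and 3.95% lower (812 genes), and 1884 of the 2962 calls remained. The arrays of the groups did not overlap, with Si2AK higher, for 15.1% of all genes, and, with Si2AK lower, for 11.8%. The count of higher genes was 2584 without SiC replicate 1, which enters only through the shared estimate of spread, and 1015 without Si2AK replicate 1. The count of lower genes was 812 without Si2AK replicate 2.

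The other transfections were set against the same NT arrays, and these comparisons share them. SiC minus NT gave 0 calls by limma, with 1391 genes at an unadjusted p below 0.05. Si1AK minus NT gave 3.56% of genes higher and 2.31% lower (731 and 475), with 1303 and 1173 genes without SiC replicate 1, 483 and 252 without NT replicate 2, and 291 lower without NT replicate 1. A test of Si2AK against SiC is also the test of whether the Si2AK difference from NT differs from the SiC difference, and it gave 8.77% of genes higher and 3.77% lower (1802 and 776), with 966 and 514 without Si2AK replicate 1. The same test against Si1AK gave 5.99% higher and 5.44% lower (1231 and 1119). The higher count was 2232 without SiC replicate 1 and 747, 818 and 820 without Si2AK replicates 1, 2 and 3, and the lower count was 726 without Si2AK replicate 2.

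**Figure D1:**
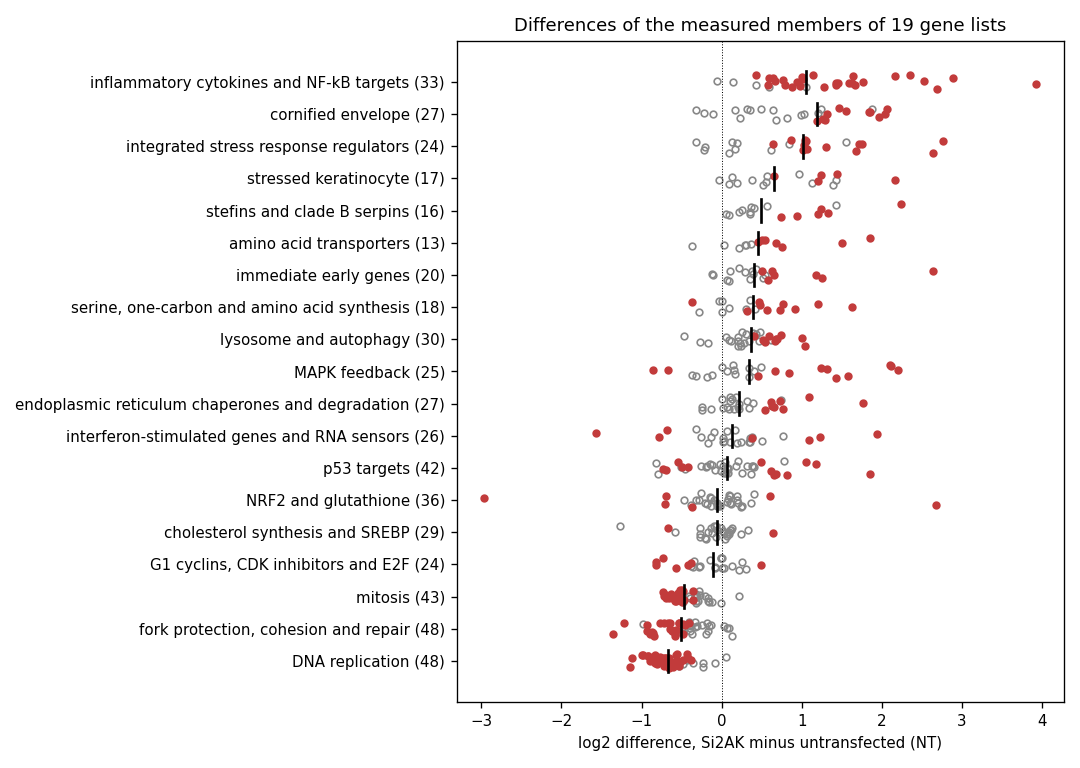
Each point is a measured member of a gene list, at its log2 difference Si2AK minus NT (x axis). Filled points passed at a limma adjusted p below 0.05, open points did not, bars are list medians, and the number tested is in parentheses. Inflammatory genes lie almost wholly to the right (median 1.05) and DNA replication genes to the left (median -0.67).

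Genes of inflammatory signalling rose widely. Of 36 listed cytokines and NF-kB targets, 33 were tested, 28 rose and 0 fell, and the median difference was 1.05 against 0.04 over all genes. Of the 28, 26 were well above background on every NT array as well. Without Si2AK replicate 2, 25 rose. With slide as a block 29 rose, and the median was 0.89 on slide 1 and 1.38 on slide 2. In bulk RNA, more transcript per cell and more cells that make a transcript cannot be told apart, which holds for each result here.

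Cxcl2, a chemokine that attracts neutrophils through CXCR2, had the largest rise of this list. Its level was -1.18, -1.53, -1.68 and -1.78 on the 4 NT arrays and 2.16, 2.46 and 2.52 on the 3 Si2AK arrays. All Si2AK arrays lay far above all NT arrays, the difference was 3.92 ± 0.214 (SE; limma adjusted p = 5.93e-06), and the probe lies on chromosome 5, 91334534 to 91334593 of mm9. The means were -1.54 ± 0.264 (SD, n = 4) in NT and 2.38 ± 0.195 (SD, n = 3) in Si2AK. The excess over SiC was 3.29 (adjusted p = 2e-05) and over Si1AK 3.51 (adjusted p = 3.45e-06), so the rise was larger than either other transfection gave. Its neighbour Cxcl1, of the same function, stood at 4.10, 4.08, 3.71 and 3.62 in NT and at 6.18, 6.26 and 6.78 in Si2AK. The groups did not overlap, and the difference was 2.53 ± 0.246 (adjusted p = 9.07e-05). Among genes of this list looked up after their values were seen, Cxcl5, another CXCR2 ligand, rose by 1.66 ± 0.253 (adjusted p = 0.00126).

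The colony-stimulating factors rose next. Csf3 encodes G-CSF, which drives neutrophil production. Its level was 1.11, 0.94, 0.47 and 0.83 in NT and 3.57, 3.37 and 4.22 in Si2AK, a difference of 2.88 ± 0.273 (adjusted p = 7.48e-05). Csf2 encodes GM-CSF and stood at -1.11, -1.39, -1.67 and -1.67 in NT against 0.98, 0.84 and 1.85 in Si2AK, a difference of 2.68 ± 0.222 (adjusted p = 3.55e-05). Neither gene overlapped between groups, and in both Si2AK replicate 3 was the highest array. Si1AK also raised both against NT, Csf3 by 1.40 (adjusted p = 0.00723) and Csf2 by 1.63 (adjusted p = 0.000825). Si2AK exceeded Si1AK by 1.48 for Csf3 (adjusted p = 0.00435) and by 1.05 for Csf2 (adjusted p = 0.00946).

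The interleukin 1 genes moved with them. Il1a, an alarm cytokine stored in keratinocytes, was at 1.95, 1.66, 1.89 and 1.62 in NT and at 3.90, 3.60 and 4.33 in Si2AK. The groups were separate, with a difference of 2.17 ± 0.185 (adjusted p = 4.28e-05). Il1b rose by 1.27 ± 0.118 (adjusted p = 7.04e-05), Il6 by 1.64 ± 0.282 (adjusted p = 0.00257) and Ptgs2, the inducible cyclooxygenase, by 2.35 ± 0.176 (adjusted p = 1.95e-05). The Il1b call was lost after quantile normalization. Il6 did not differ beyond its spread from SiC (0.90, adjusted p = 0.0754). Tnf was well above background on 1 of 4 NT arrays and on all 3 Si2AK arrays. Its difference of 1.76 (adjusted p = 0.0219) did not pass without Si2AK replicate 2 or 3 or NT replicate 2, 3 or 4, nor with normexp, quantile normalization or the authors' deposited table, and the test against SiC did not pass either (adjusted p = 0.413). The SiC arrays were at -2.53, -4.66 and -4.31, and the highest, replicate 1, was the array with raised dim signal. For Tnf the test against SiC was not repeated without that array. The negative regulators of NF-kB rose by less, Nfkbia by 0.94 ± 0.199 (adjusted p = 0.00813) and Tnfaip3 by 1.01 ± 0.211 (adjusted p = 0.00769). Ptges, prostaglandin E synthase, was at 0.14 (adjusted p = 0.445), and Tnfaip2 was at -0.05 (adjusted p = 0.855). Il1b, Il6, Ptgs2, Tnf, Nfkbia, Tnfaip3, Ptges and Tnfaip2 were also picked after their values were seen.

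**Figure D2:**
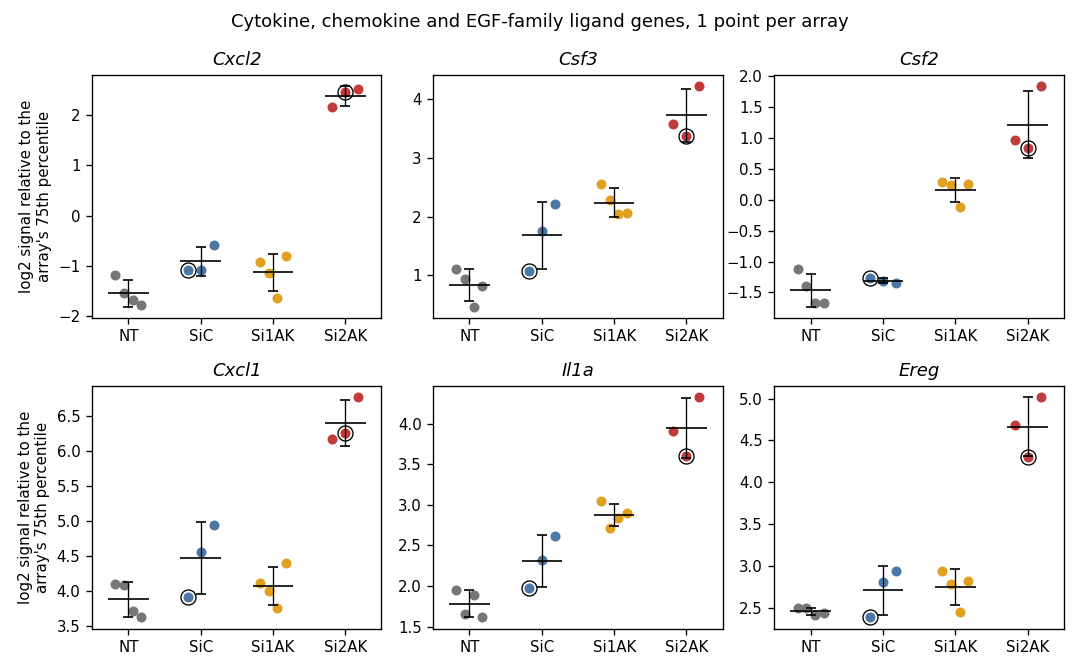
Level of 6 genes on each of the 14 arrays (y axis, log2 signal relative to the array's 75th percentile) by group. Bars are means with SD, and rings mark SiC replicate 1 and Si2AK replicate 2. Cxcl2 is between 2.16 and 2.52 on the Si2AK arrays and at or below -0.58 on all others. Csf2, Csf3 and Il1a are also raised in Si1AK.

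RefSeq promoter windows (GRCm38.p6, around the transcription start) were available for 22 of the 33 tested inflammatory genes. A form of the NF-kB motif, GGNNTTTCC on either strand, was found in 14 of their 27 windows and in 5.82% of all 32851 windows. Of the 12 genes with a match, Icam1 and Tnfaip2 did not pass the expression test and the others rose. A match is a description of the letters only. The list was compiled to hold NF-kB targets, so a high share could be found whatever the expression differences were. The windows of the chemokine pair and of Il6 and Tnfaip3 are shown because these genes rose and carry the motif close to the start. They lie at chr5:90891115-90891234 (plus strand, Cxcl1), chr5:90903769-90903888 (plus strand, Cxcl2), chr5:30012984-30013103 (plus strand, Il6) and chr10:19015412-19015540 (minus strand, Tnfaip3). Each begins 130 bases before the start site, and capitals mark the motif.
Cxcl1: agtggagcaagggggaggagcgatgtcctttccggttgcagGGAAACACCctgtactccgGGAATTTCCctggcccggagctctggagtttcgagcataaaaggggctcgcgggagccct
Cxcl2: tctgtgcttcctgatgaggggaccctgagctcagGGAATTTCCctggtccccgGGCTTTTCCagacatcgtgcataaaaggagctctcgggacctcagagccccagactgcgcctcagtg
Il6: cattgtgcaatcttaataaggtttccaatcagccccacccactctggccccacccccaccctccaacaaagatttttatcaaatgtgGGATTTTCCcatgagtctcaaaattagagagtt
Tnfaip3: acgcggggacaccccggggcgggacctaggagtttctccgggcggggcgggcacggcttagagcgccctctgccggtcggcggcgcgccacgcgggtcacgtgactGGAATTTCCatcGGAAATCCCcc

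Most EGF receptor ligands also rose, while feedback genes of MAP kinase signalling moved unevenly. Of 25 genes tested from the list that holds both, 10 rose and 2 fell, with a median of 0.35. Over all genes 7.81% were higher and 6.6% lower, and the share of the list that fell was near the latter. The list members that rose were the ligand genes Ereg, Epgn, Hbegf, Areg and Tgfa, the cytokine gene Lif, and Dusp5, Dusp8, Dusp10 and Phlda1. The ligand gene Btc (-0.32, adjusted p = 0.482) did not pass. Dusp1, Dusp4, Spry2, Spry4 and Errfi1 were among the feedback genes that did not pass. Without Si2AK replicate 2, 8 rose and 1 fell, with slide as a block 11 rose and 2 fell, and the median was 0.29 on slide 1 and 0.45 on slide 2. The count that fell was also 1 without Si2AK replicate 1 or 3, or without NT replicate 1, 2 or 3. Ereg, which encodes the EGF receptor ligand epiregulin, was at 2.50, 2.50, 2.41 and 2.44 in NT and at 4.68, 4.30 and 5.01 in Si2AK. The NT arrays were nearly equal, all Si2AK arrays lay above them, and the difference was 2.20 ± 0.177 (adjusted p = 3.1e-05). Epgn, encoding the ligand epigen, stood at 4.40, 4.51, 4.38 and 4.19 in NT and at 6.63, 6.20 and 6.57 in Si2AK, a difference of 2.10 ± 0.132 (adjusted p = 8.52e-06). Hbegf rose by 1.57 ± 0.233 (adjusted p = 0.00106). Areg, chosen after its value was seen, rose by 1.31 ± 0.252 (adjusted p = 0.00481). For none of Ereg, Epgn and Hbegf was Si1AK called against NT, and Si2AK exceeded Si1AK for each, by 1.91 (adjusted p = 5.45e-05), 2.21 (adjusted p = 3.02e-06) and 1.22 (adjusted p = 0.00537). Dusp8, a phosphatase of JNK and p38 kinases, was at -1.05, -1.37, -1.23 and -1.10 in NT and at 1.21, 0.81 and 0.74 in Si2AK, a rise of 2.11 ± 0.16 (adjusted p = 2.05e-05). The members that fell were Spry1 (-0.85, adjusted p = 0.0471) and Dusp7 (-0.67, adjusted p = 0.00474), an inhibitor of receptor signalling and an ERK phosphatase. The Spry1 call was lost without any 1 Si2AK array or NT replicate 1, 2 or 3. Dusp6, the ERK phosphatase often used as a readout of ERK activity, stayed at a difference of 0.00 ± 0.152 (adjusted p = 0.998).

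Of 20 immediate early genes tested, 7 rose and 0 fell (median 0.40, 0.38 on slide 1 and 0.47 on slide 2, and 9 rose with slide as a block). Fos, a subunit of AP-1, was at -0.85, -1.13, -1.31 and -1.67 in NT and at 0.01, -0.17 and 0.21 in Si2AK, a rise of 1.26 ± 0.196 (adjusted p = 0.00142). Ier3, an early response gene, rose by 1.17 ± 0.21 (adjusted p = 0.00321) and Maff, a small MAF factor, by 0.65 ± 0.112 (adjusted p = 0.00262). Myc, also an early gene, was at -0.11 ± 0.084 (adjusted p = 0.488), and was picked after its value was seen.

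Regulators of the integrated stress response rose together with the cytokines. All 24 listed genes were tested, 13 rose and 0 fell, with a median of 1.02, and 13 rose without Si2AK replicate 2. With slide as a block 14 rose, and the median was 0.87 on slide 1 and 0.98 on slide 2. Si1AK minus NT gave 0 that rose and 1 that fell among the same genes, the dim Fgf21. Against Si1AK, Si2AK was higher for 17 of the 24, and against SiC for 13. Atf3, a stress-induced transcription factor, was at 0.09, -0.15, 0.34 and 0.48 in NT and at 2.62, 2.53 and 3.32 in Si2AK. The groups were separate and the difference was 2.63 ± 0.367 (adjusted p = 0.000719). Ddit3, which encodes the factor CHOP, stood at 0.90, 0.94, 1.41 and 1.15 in NT and at 2.74, 2.59 and 3.12 in Si2AK, a rise of 1.72 ± 0.307 (adjusted p = 0.00325). Ppp1r15a encodes GADD34, which returns eIF2alpha to its unphosphorylated state, and rose by 1.76 ± 0.291 (adjusted p = 0.00206).

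Fgf21, a secreted stress hormone, was dim, at -3.67, -4.65, -5.81 and -4.70 in NT and at -1.60, -1.93 and -2.30 in Si2AK. It was well above background on 2 of 4 NT arrays and on all 3 Si2AK arrays. Its difference from NT was 2.77 ± 0.583 (adjusted p = 0.00811) with Si2AK. The Si1AK arrays, at -7.64, -7.83, -6.50 and -6.10, lay below the lowest signal counted as well above background on each, so no size is given for Si1AK. Trib3, a pseudokinase induced by ATF4, Chac1, a glutathione-degrading enzyme, and Nupr1, a stress factor, are named here after their values were seen. Trib3 was at 4.18, 4.28, 4.16 and 4.35 in NT and at 5.64, 6.03 and 6.10 in Si2AK, a rise of 1.68 ± 0.281 (adjusted p = 0.00216). Chac1 rose by 1.30 ± 0.203 (adjusted p = 0.00142) and Nupr1 by 1.02 ± 0.238 (adjusted p = 0.0137), a call lost without Si2AK replicate 3. The Atf4 transcript itself, also named after the fact, was at 0.16 ± 0.156 (adjusted p = 0.601). ATF4 is known to be controlled mainly at translation, which these arrays do not measure.

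**Figure D3:**
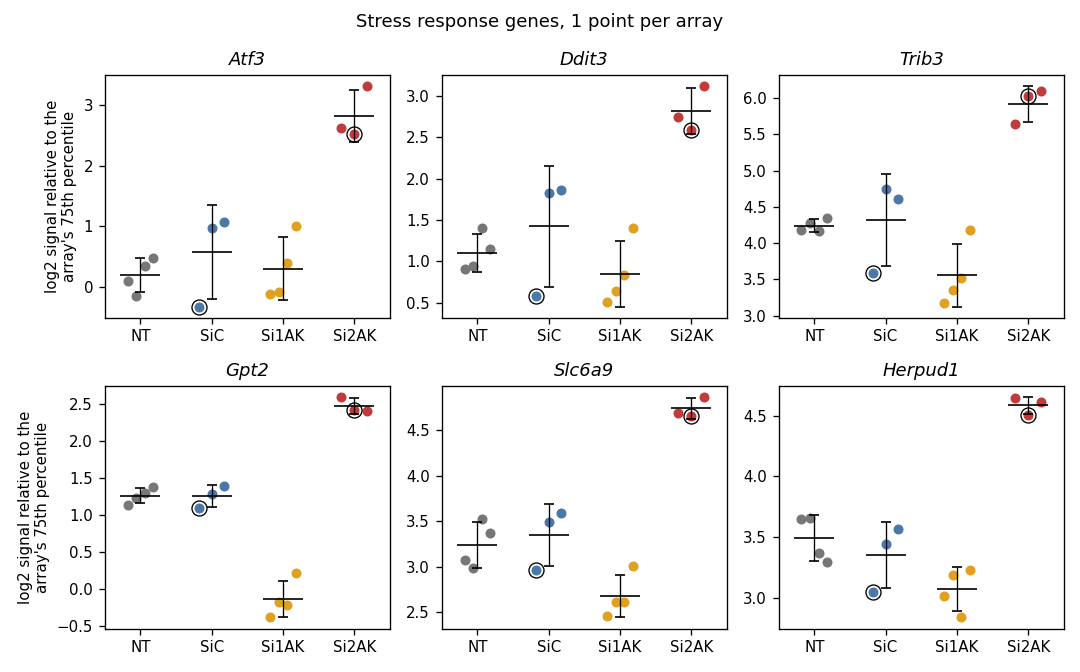
Level of 6 stress response genes on each array (y axis, log2 signal relative to the array's 75th percentile) by group, with means and SD. Rings mark SiC replicate 1 and Si2AK replicate 2. The Si2AK arrays are the highest for each gene shown, and for Gpt2 the Si1AK arrays, between -0.37 and 0.21, are the lowest.

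The genes of amino acid supply followed in part. Of 18 genes of serine, one-carbon and amino acid synthesis, 9 rose and 1, Shmt1, fell (-0.38, adjusted p = 0.0342), with a median of 0.39 (0.41 on slide 1 and 0.29 on slide 2, with the same counts under a slide block). The count that rose was 5 without Si2AK replicate 1, 2 or 3 in turn or without NT replicate 1. The Shmt1 call was lost in each of these and without NT replicate 2 or 4, leaving 0 that fell. Gpt2, a mitochondrial alanine transaminase, was at 1.13, 1.23, 1.30 and 1.38 in NT and at 2.59, 2.41 and 2.40 in Si2AK, a rise of 1.21 ± 0.132 (adjusted p = 0.000177). With Si1AK it moved the other way, by -1.40 (adjusted p = 8.31e-05), and the siRNAs differed by 2.60 (adjusted p = 9.09e-07). Cth, of cysteine synthesis, rose by 0.91 ± 0.112 (adjusted p = 0.00035) and differed from NT by -0.58 (adjusted p = 0.00737) with Si1AK. Aldh1l2 and Mthfd2, mitochondrial folate enzymes, rose by 1.62 ± 0.306 (adjusted p = 0.00434) and 0.76 ± 0.134 (adjusted p = 0.0029). The serine pathway enzymes Phgdh (-0.04, adjusted p = 0.873) and Psat1 (0.09, adjusted p = 0.692), looked up after the fact, did not pass.

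Of 13 tested amino acid transporters, 7 rose and 0 fell, with a median of 0.45 (0.32 on slide 1 and 0.61 on slide 2, and 7 rose with slide as a block). Without Si2AK replicate 2, 4 rose, and without Si2AK replicate 3, 3 rose. Slc7a3, a cationic amino acid transporter, was at -2.63, -2.98, -2.79 and -2.61 in NT and at -1.08, -1.10 and -0.53 in Si2AK, a rise of 1.85 ± 0.174 (adjusted p = 7.21e-05). This call was lost after quantile normalization. Slc6a9, the glycine transporter GlyT1, rose by 1.504 ± 0.184 (adjusted p = 0.000337). Slc3a2, the heavy chain of several transporters, rose by 0.68 ± 0.159 (adjusted p = 0.0141), a call lost without Si2AK replicate 3. Of 20 cytosolic aminoacyl-tRNA synthetases, 5 rose and 1, Dars, fell, with a median of 0.21 (0.22 on slide 1 and 0.23 on slide 2). The count that rose was between 1 and 3 without any single array of either group, and 8 with slide as a block or without SiC replicate 1. The Dars call was lost without any 1 Si2AK array or NT replicate 2 or 4. Nars, the asparagine enzyme, rose by 0.48 ± 0.105 (adjusted p = 0.00942).

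RefSeq promoter windows were available for 21 of the 24 stress response regulators. The element TGATGNAA, bound by ATF4 with C/EBP partners and known as the CARE, was searched on both strands. It was found in 6 of 26 windows, or 23.1%, and in 3.97% of all windows. It was in 3 of 17 windows of the synthesis genes, 2 of 13 of the transporters and 5 of 13 of the synthetases. As above, a match describes the letters only. Such lists could hold a high share whatever the expression differences were. Vldlr (1.04 ± 0.776, adjusted p = 0.467) and the transporter gene Slc7a11 (0.37, adjusted p = 0.527) carried a match and did not pass. The same held for the synthetase genes Yars (0.21, adjusted p = 0.419), Gars (0.15, adjusted p = 0.595) and Tars (0.36, adjusted p = 0.052). The sequences of 4 genes that rose, each beginning 220 bases before the start, are shown with the match in capitals. They lie at chr1:191183394-191183553 (minus strand, Atf3), chr2:119351022-119351181 (plus strand, Chac1), chr7:45615551-45615710 (minus strand, Fgf21) and chr7:126625531-126625690 (minus strand, Nupr1).
Atf3: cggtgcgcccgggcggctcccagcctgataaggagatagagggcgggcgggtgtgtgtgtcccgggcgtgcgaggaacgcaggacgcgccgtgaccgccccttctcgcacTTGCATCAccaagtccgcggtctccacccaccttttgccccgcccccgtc
Chac1: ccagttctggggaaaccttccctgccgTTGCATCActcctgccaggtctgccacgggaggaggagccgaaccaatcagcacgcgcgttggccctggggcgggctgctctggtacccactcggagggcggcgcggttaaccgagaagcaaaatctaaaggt
Fgf21: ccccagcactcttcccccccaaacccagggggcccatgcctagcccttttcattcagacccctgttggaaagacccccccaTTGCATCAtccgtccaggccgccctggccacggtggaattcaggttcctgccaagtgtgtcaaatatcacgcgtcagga
Nupr1: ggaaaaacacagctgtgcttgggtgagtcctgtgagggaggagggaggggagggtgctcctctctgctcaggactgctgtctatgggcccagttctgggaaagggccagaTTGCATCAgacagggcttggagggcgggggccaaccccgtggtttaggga

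The protein folding machinery of the endoplasmic reticulum moved less. Of 27 chaperones and degradation factors tested, 8 rose and 0 fell, with a median of 0.21 (0.23 on slide 1 and 0.31 on slide 2, and 9 rose with slide as a block). Dnajb9, a co-chaperone of the unfolded protein response, was at 0.70, 0.61, 1.11 and 1.04 in NT and at 2.63, 2.37 and 2.87 in Si2AK, a rise of 1.76 ± 0.186 (adjusted p = 0.000147). Herpud1, of protein degradation at this membrane, rose by 1.09 ± 0.146 (adjusted p = 0.000543). Hspa5, the main chaperone, looked up after the fact, was at 0.40 ± 0.145 (adjusted p = 0.0967) and did not pass. Among 30 lysosome and autophagy genes, 10 rose and 0 fell, with a median of 0.37 (0.39 on slide 1 and 0.33 on slide 2, and 15 rose with slide as a block). Without Si2AK replicate 3, 5 rose, and without SiC replicate 1, 18. Atp6v0d1, a subunit of the lysosomal proton pump, rose by 1.04 ± 0.141 (adjusted p = 0.000596), and Map1lc3b, which encodes the autophagosome protein LC3B, by 0.74 ± 0.151 (adjusted p = 0.00693). Sqstm1, the autophagy receptor p62, was at 2.04, 2.27, 2.43 and 2.44 in NT and at 3.13, 3.099 and 3.65 in Si2AK. The rise was 0.997 ± 0.245 (adjusted p = 0.0177), and this call was lost without Si2AK replicate 3.

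Genes of the outer skin layers rose unevenly. Of 41 listed cornified envelope genes, 27 were tested, 11 rose and 0 fell, and all 11 were well above background on every NT array. The median was 1.19 (0.83 on slide 1 and 1.27 on slide 2), 13 rose with slide as a block, and 11 rose without Si2AK replicate 2. The median was 0.42 with normexp, where 11 rose, and 0.58 in the authors' deposited table, where 12 rose. Lce1i, which encodes a late cornified envelope protein, was at 2.66, 2.69, 2.65 and 2.45 in NT and at 4.66, 4.62 and 4.78 in Si2AK. The groups were separate by nearly the whole difference of 2.07 ± 0.166 (adjusted p = 3.1e-05). Lce1g (1.96 ± 0.178, adjusted p = 6.18e-05) and Crct1 (1.85 ± 0.207, adjusted p = 0.000197) rose to a like extent. For Lce1i, Lce1g and Crct1 the siRNAs differed by 0.26 (adjusted p = 0.384), 0.29 (adjusted p = 0.379) and 0.50 (adjusted p = 0.16), which did not pass. Sprr2h, a small proline-rich protein, rose by 2.03 ± 0.326 (adjusted p = 0.00169) with Si2AK and was at 0.00 with Si1AK, and that difference of 2.03 passed (adjusted p = 0.00184). Its call against NT was lost after quantile normalization. Ivl (0.36, adjusted p = 0.0515) and Krt10 (0.23, adjusted p = 0.247), which mark earlier steps of differentiation, did not pass and were looked up after the fact. All 11 that rose were Lce or Sprr genes or Crct1. Other members outside these did not pass either, among them Casp14 (-0.32, adjusted p = 0.217), Cdsn (0.67, adjusted p = 0.171) and Klk7 (1.88, adjusted p = 0.319). Members of these families are close in sequence, so cross-hybridisation between them is possible and their single values are uncertain.

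Genes of activated keratinocytes rose in part. Of 17 tested stress and wound genes, 5 rose and 0 fell, with a median of 0.65 (0.58 on slide 1 and 0.91 on slide 2, and 5 rose with slide as a block), or 1.04 without NT replicate 3. Krt16, a keratin of wounded skin, was at 3.36, 3.49, 3.61 and 3.56 in NT and at 4.94, 4.81 and 5.06 in Si2AK, a rise of 1.43 ± 0.154 (adjusted p = 0.000156). Among 16 tested stefins and clade B serpins, which inhibit proteases, 6 rose and 0 fell (median 0.48, 0.38 on slide 1 and 0.68 on slide 2). With slide as a block 10 rose, and 12 rose without SiC replicate 1, after quantile normalization and in the authors' deposited table. Serpinb1a, an elastase inhibitor, was at 1.77, 1.94, 2.13 and 2.20 in NT and at 4.31, 4.06 and 4.39 in Si2AK, a rise of 2.24 ± 0.216 (adjusted p = 8.18e-05). Si1AK was at -0.52 from NT (adjusted p = 0.172), and the siRNAs differed by 2.76 (adjusted p = 1.46e-05).

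Of 19 basal keratinocyte genes, 5 rose and 0 fell (median 0.23, 0.25 on slide 1 and 0.39 on slide 2). The count that rose was 3 without Si2AK replicate 1, 2 without replicate 3, 8 with slide as a block and 10 without SiC replicate 1. Lama3, a laminin chain of the membrane under the epidermis, rose by 0.73 ± 0.115 (adjusted p = 0.00151). The bright keratins of this layer, looked up after the fact, did not pass, Krt5 at -0.19 (adjusted p = 0.349) and Krt14 at 0.13 (adjusted p = 0.439). Of 16 tested junction genes, 4 rose and 0 fell (median 0.26, 0.29 on slide 1 and 0.25 on slide 2), and 1 rose without Si2AK replicate 1, 2 without Si2AK replicate 2 or 3 or NT replicate 3 or 4, and 7 without SiC replicate 1. Dsg3, a desmosomal cadherin, was at -4.61, -4.97, -4.62 and -5.51 in NT, well above background on 1 array only, and at -1.50, -1.41 and -1.61 in Si2AK, above background on all 3. Its difference was 3.42 ± 0.474 (adjusted p = 0.000697), the size of which is limited by the dim NT signal. The Si1AK arrays were at -5.78, -5.17, -5.85 and -5.14, near the lowest signal counted as well above background, so no size is given for Si1AK.

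DNA replication genes fell almost as a block. All 48 were tested, 40 fell and 0 rose, and the median difference was -0.67. Without Si2AK replicate 2, 31 fell. With slide as a block 42 fell, and the median was -0.64 on slide 1 and -0.68 on slide 2. Si1AK minus NT gave 21 that fell with a median of -0.44, and the test of Si2AK against Si1AK gave 9 lower and 0 higher. Against SiC, 31 were lower. Mcm10, an initiation factor of the replication fork, was at 3.59, 3.65, 3.59 and 3.49 in NT and at 2.61, 2.34 and 2.36 in Si2AK. The groups were separate and the difference was -1.14 ± 0.128 (adjusted p = 0.000199). Tk1, thymidine kinase, was at 5.35, 5.34, 5.33 and 5.33 in NT and at 4.53, 4.30 and 4.23 in Si2AK, a fall with a difference of -0.98 ± 0.0895 (adjusted p = 6.18e-05). Uhrf1, which guides DNA methylation to new strands, fell (-1.11 ± 0.147, adjusted p = 0.00052), as did the nuclease and helicase Dna2 (-0.999 ± 0.114, adjusted p = 0.000223). Every subunit of the MCM2 to MCM7 helicase was measured, and Mcm6 (-0.72 ± 0.127, adjusted p = 0.00301) and Mcm7 (-0.77 ± 0.113, adjusted p = 0.000948) are named for their promoters below.

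RefSeq promoter windows matched 39 of the 48 replication genes. The E2F motifs TTTCCCGC and TTTGGCGC, on either strand, were in 13 of 48 windows, or 27.1%, and in 1.56% of all windows. Here too a match describes the letters only, and a high share could be found whatever the expression differences were. Gins3 carried a match and did not pass (-0.08 ± 0.0992, adjusted p = 0.69), and the other genes with a match fell. The windows of Mcm6, Cdc6 (-0.83 ± 0.0798, adjusted p = 8.18e-05) and Mcm7 are shown, chosen after the matches were seen, and their motifs lie before the start. Mcm5, Pola1 and Gins3 also carry a motif before the start and are not shown. They lie at chr1:128359726-128359855 (minus strand, Mcm6), chr11:98907971-98908090 (plus strand, Cdc6) and chr5:138171944-138172063 (minus strand, Mcm7).
Mcm6: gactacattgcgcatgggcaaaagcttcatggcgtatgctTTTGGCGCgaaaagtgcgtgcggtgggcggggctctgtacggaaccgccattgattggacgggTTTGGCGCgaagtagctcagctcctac
Cdc6: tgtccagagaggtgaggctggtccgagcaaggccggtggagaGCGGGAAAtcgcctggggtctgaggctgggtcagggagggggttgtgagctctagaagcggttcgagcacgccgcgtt
Mcm7: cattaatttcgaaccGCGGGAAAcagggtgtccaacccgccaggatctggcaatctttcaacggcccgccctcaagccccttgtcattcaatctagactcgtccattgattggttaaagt

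Genes that protect and repair forks fell as well. Of 48 listed, 24 fell and 0 rose, with a median of -0.51 (-0.46 on slide 1 and -0.55 on slide 2), and 16 fell without Si2AK replicate 2. With slide as a block, 29 fell. Rad54l, a motor protein of homologous recombination, was at 1.38, 1.34, 1.34 and 1.48 in NT and at 0.05, 0.15 and -0.13 in Si2AK. The difference was -1.36 ± 0.091 (adjusted p = 9.09e-06), and Si1AK was lower than NT too, by -0.91 (adjusted p = 0.000118). Timeless, of the fork protection complex, fell (-1.22 ± 0.151, adjusted p = 0.000355).

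Mitosis genes showed smaller differences. Of 43, 21 fell and 0 rose, with a median of -0.48 (-0.41 on slide 1 and -0.47 on slide 2, and 25 fell with slide as a block). The count was 9 without Si2AK replicate 2 and 10 without Si2AK replicate 3. Si1AK minus NT gave 20 that fell, and Si2AK against SiC gave 8. Kif20a, a kinesin of cytokinesis, was at 4.33, 4.55, 4.45 and 4.52 in NT and at 4.01, 3.67 and 3.54 in Si2AK, a difference of -0.72 ± 0.144 (adjusted p = 0.00592). It did not differ beyond its spread from SiC (-0.40, adjusted p = 0.12). Cenpk, of the kinetochore, fell (-0.74 ± 0.13, adjusted p = 0.00306), and so did Kif2c, a microtubule-depolymerising kinesin (-0.69 ± 0.115, adjusted p = 0.00206). Mki67, the proliferation marker, looked up after the fact, was at 5.36, 5.39, 3.22 and 5.90 in NT and at 5.28, 4.80 and 5.48 in Si2AK, a difference of 0.22 ± 0.499 (adjusted p = 0.841). NT replicate 3, at 3.22, lay far below the other NT arrays, so the sign of this difference is uncertain. Of 24 tested G1 cyclins, inhibitors and E2F genes, 1 rose, the CDK inhibitor Cdkn1a, and 6 fell (median -0.11, -0.06 on slide 1 and -0.28 on slide 2, and 1 and 7 with slide as a block). The shares over all genes were 7.81% higher and 6.6% lower. The Cdkn1a call was lost without Si2AK replicate 1 or 3 or NT replicate 1, 2 or 3, and 4 fell without Si2AK replicate 3. Ccnd3, cyclin D3, fell (-0.81 ± 0.106, adjusted p = 0.000478), as did E2f7 (-0.82 ± 0.14, adjusted p = 0.00248), a call lost when a gene's probes were averaged.

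Targets of p53 split. Of 42 tested, 8 rose and 5 fell, with a median of 0.06 (0.06 on slide 1 and 0.07 on slide 2, with 8 and 6 under a slide block). The count that fell was 3 without Si2AK replicate 2 or 3. Plk3, a stress kinase, was at 2.98, 3.001, 2.99 and 3.31 in NT and at 5.002, 4.86 and 4.88 in Si2AK, a rise of 1.85 ± 0.151 (adjusted p = 3.31e-05). Gadd45a, a growth arrest gene, rose by 1.18 ± 0.113 (adjusted p = 8.18e-05), and Sesn2, which ATF4 also induces, by 1.05 ± 0.131 (adjusted p = 0.000366). Si1AK minus NT gave 11 that rose and 0 that fell, and Si2AK against Si1AK gave 5 higher and 12 lower. Ccng1 and Zmat3, long-known p53 targets looked up after the fact, were at 0.06 (adjusted p = 0.844) and -0.12 (adjusted p = 0.558) with Si2AK. With Si1AK they rose by 0.73 (adjusted p = 0.00487) and 0.60 (adjusted p = 0.00407), and the siRNAs differed by -0.67 (adjusted p = 0.00638) and -0.72 (adjusted p = 0.00103). Mdm2, another target looked up after the fact, was at 0.02 (adjusted p = 0.968) with Si2AK. It did not pass with Si1AK (0.52, adjusted p = 0.133), nor did the difference between the siRNAs (-0.50, adjusted p = 0.141). Cdkn1a rose with both, by 0.49 (adjusted p = 0.0325) and 0.70 (adjusted p = 0.00744).

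**Figure D4:**
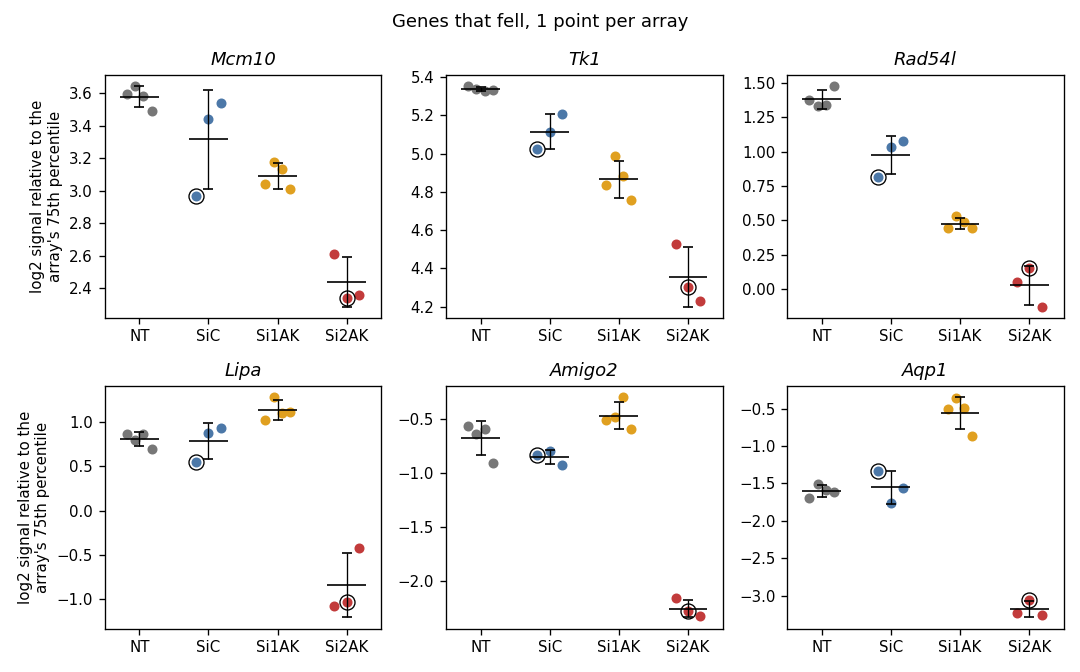
Level of 6 genes that fell with Si2AK, on each array (y axis, log2 signal relative to the array's 75th percentile) by group, with means and SD. Rings mark SiC replicate 1 and Si2AK replicate 2. Mcm10, Tk1 and Rad54l are also lower in Si1AK than in NT, while Lipa and Amigo2 are low only on Si2AK arrays and Aqp1 is high in Si1AK.

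Several of the largest falls were of genes that moved singly. Lipa, lysosomal acid lipase, was at 0.86, 0.80, 0.87 and 0.70 in NT and at -1.07, -1.03 and -0.42 in Si2AK. The groups were far apart, with a difference of -1.65 ± 0.154 (adjusted p = 7.04e-05). In mm9 the probe is at chromosome 19, 34567717 to 34567776. Amigo2, an adhesion molecule, was at -0.57, -0.63, -0.59 and -0.91 in NT and at -2.16, -2.28 and -2.33 in Si2AK, a difference of -1.58 ± 0.103 (adjusted p = 8.83e-06). For Lipa and Amigo2, Si1AK did not differ from NT beyond its spread (0.33, adjusted p = 0.228, and 0.21, adjusted p = 0.253). Si2AK was below Si1AK by a difference of -1.98 (adjusted p = 1.45e-05) and of -1.79 (adjusted p = 2.45e-06).

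Aqp1, a water channel, moved in opposite directions. It was at -1.70, -1.51, -1.59 and -1.61 in NT and at -3.23, -3.06 and -3.26 in Si2AK, a difference of -1.58 ± 0.13 (adjusted p = 3.44e-05). With Si1AK it rose by 1.05 (adjusted p = 0.000481), and the siRNAs differed by -2.63 (adjusted p = 8.83e-07). Spn, the sialoglycoprotein CD43, did the same, with differences of -1.55 ± 0.162 (adjusted p = 0.000137) for Si2AK and 0.80 (adjusted p = 0.0084) for Si1AK. Gsta3, a glutathione transferase, was at -1.99, -1.89, -2.11 and -2.24 in NT and at -5.78, -3.89 and -5.39 in Si2AK, a difference of -2.96 ± 0.372 (adjusted p = 0.00038). It was well above background on 2 of 3 Si2AK arrays, so the lowest values are near the limit of detection.

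Polr3k, a subunit of RNA polymerase III, was nearly constant in NT, at 2.66, 2.68, 2.67 and 2.67, and stood at 0.99, 0.68 and 1.61 in Si2AK, a difference of -1.57 ± 0.191 (adjusted p = 0.000315). Ccnb1ip1, a ubiquitin ligase of meiotic crossovers, fell with both siRNAs, by differences of -1.79 ± 0.216 (adjusted p = 0.000314) for Si2AK and -0.997 (adjusted p = 0.0124) for Si1AK. Of the remaining large falls, Galnt4, a glycosyltransferase, was at -1.57, Sspn, sarcospan, at -1.55, Wdr45b, an autophagy protein, at -1.55 and Prl3d1, of the prolactin family, at -1.65, each with an adjusted p of 0.00029 or lower. None of these 4 was called for Si1AK minus NT.

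Several of the largest rises outside the lists came from dim probes. Tac1, the precursor of substance P, was well above background on no NT array and on all 3 Si2AK arrays. Its level was -6.53, -6.18, -5.66 and -6.28 in NT and -2.86, -2.85 and -1.84 in Si2AK. Against the lowest signal that counts as well above background, or the probe's own where higher, Si2AK was at least 6.6-fold higher (adjusted p = 0.000456). Bhlha15, a transcription factor of secretory cells, was at -4.67, -5.06, -5.33 and -4.35 in NT and at -1.95, -1.90 and -1.47 in Si2AK, a rise of 3.08 ± 0.41 (adjusted p = 0.000542) with 1 NT array above background. Iapp, the islet hormone amylin, rose by 2.92 ± 0.547 (adjusted p = 0.00418), also with 1 NT array above background, and did not pass against SiC (1.67, adjusted p = 0.0894). Car6, a secreted carbonic anhydrase, was above background on every array, at -1.35, -1.83, -0.94 and -0.69 in NT and at 1.47, 1.63 and 2.50 in Si2AK, a rise of 3.07 ± 0.488 (adjusted p = 0.0016). Serpinb9e rose by 2.69 ± 0.394 (adjusted p = 0.00096). SiC stood above NT by 1.84 for this gene and Si2AK did not differ from SiC beyond its spread (0.86, adjusted p = 0.234). For Iapp and Serpinb9e the tests against SiC include SiC replicate 1, with its raised dim signal, and were not repeated without it. In all, 153 genes were above background on every Si2AK array and on no NT array, of which 18 were called, and 1 gene the other way, which was not. Si2AK replicate 2 had 84.5% of probes above background, against 51.7% to 57.7% on the NT arrays, and its part in this imbalance was not tested.

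Proteases and contractile genes rose in small numbers. Of 23 tested matrix proteases and plasminogen genes, 7 rose and 0 fell (median 0.16, 0.14 on slide 1 and 0.33 on slide 2, and 8 rose with slide as a block). Mmp13, a collagenase, was at 1.33, 0.64, 0.98 and 0.70 in NT and at 3.07, 2.57 and 4.99 in Si2AK. The rise of 2.63 ± 0.616 (adjusted p = 0.014) rested partly on replicate 3, without which it was 1.91 (adjusted p = 0.0548). Serpinb2, an inhibitor of plasminogen activators, rose by 1.20 ± 0.143 (adjusted p = 0.00028), and the siRNAs differed by 0.25 (adjusted p = 0.338). Of 25 actin and contractile genes, 7 rose and 1 fell (median 0.20, 0.17 on slide 1 and 0.20 on slide 2, and 8 and 1 with slide as a block), and 4 rose without Si2AK replicate 1. The shares over all genes were 7.81% higher and 6.6% lower. Acta2, smooth muscle actin, was at 4.31, 4.26, 4.35 and 4.54 in NT and at 6.17, 6.05 and 5.95 in Si2AK, a rise of 1.69 ± 0.105 (adjusted p = 8.52e-06). Si1AK raised it by 1.03 (adjusted p = 0.00012), and Si2AK exceeded Si1AK by 0.66 (adjusted p = 0.00179). Cnn1, calponin, rose by 1.46 ± 0.151 (adjusted p = 0.000136).

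Acta2 is also a gene of fibroblasts and smooth muscle, and some fibroblast markers rose as well. Of 10 fibroblast markers, 5 were tested, 2 rose (Dcn by 1.28 ± 0.29, adjusted p = 0.0118, and Pdgfra by 1.16 ± 0.149, adjusted p = 0.000427) and 0 fell, and 3 were well above background on all NT arrays and 5 on all Si2AK arrays. Their summed linear signal was between 0.946 and 1.13 times the 75th percentile value in NT and between 1.94 and 2.27 times in Si2AK, and Postn was above background on no array. Tested markers not above background on all NT arrays, Dcn among them, entered the sum only through the Si2AK arrays. The filter therefore favours a higher sum in Si2AK. Dcn lost its call with normexp, with quantile normalization and in the authors' deposited table. Of 10 leukocyte markers, 6 were tested and 1, Itgam, fell, a call lost without any 1 Si2AK array or NT replicate 1, 2 or 3, with a sum between 19.04 and 22.4 in NT and between 17.6 and 18.9 in Si2AK. Of 4 tested endothelial markers, 0 rose and 0 fell, with a sum between 11.1 and 16.7 in NT and between 11.3 and 14.04 in Si2AK. Of 4 tested melanocyte markers, 1, Mitf, rose, and the sum was between 2.50 and 2.95 in NT and between 4.76 and 5.22 in Si2AK. The filter bears on this sum too, as 3 of the 4 were above background on all NT arrays. What part these markers have in the results above was not tested.

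Interferon-stimulated genes did not move as a group. Of 36 listed, 26 were tested, 4 rose and 3 fell, with a median of 0.13 (0.25 on slide 1 and -0.01 on slide 2, and 4 and 3 with slide as a block). Ifit1, an RNA-binding antiviral protein, was at -3.70, -4.16, -3.52 and -3.43 in NT and at -1.87, -1.87 and -1.55 in Si2AK, a rise of 1.94 ± 0.196 (adjusted p = 0.000117). SiC stood 1.08 above NT and Si1AK 1.11 (adjusted p = 0.00412), and Si2AK exceeded SiC by 0.86 (adjusted p = 0.0201). Isg15, a ubiquitin-like protein, rose by 1.22 ± 0.159 (adjusted p = 0.000476) and Oasl1 by 1.09 ± 0.125 (adjusted p = 0.000226). Mx1, an antiviral GTPase, was at -2.32, -2.22, -1.61 and -1.46 in NT and at -3.49, -3.67 and -3.26 in Si2AK, a difference of -1.57 ± 0.21 (adjusted p = 0.000555). That call was lost after quantile normalization (-2.07, adjusted p = 0.133) and in the authors' deposited table (-1.19, adjusted p = 0.074). Oas1a and Psmb9, an RNA sensor and a proteasome subunit, were the others that fell (-0.78, adjusted p = 0.00147, and -0.68, adjusted p = 0.000733), and Xaf1 was the fourth that rose (0.38, adjusted p = 0.044). The Xaf1 call was lost without Si2AK replicate 1 or 2 or any 1 NT array, and with normexp or the 7 arrays alone. Of 15 tested genes of small RNA silencing, through which siRNAs act, 0 rose and 1 fell, near the 6.6% lower over all genes. The count that fell was 4 with quantile normalization and 3 from the authors' deposited table, and 3 rose and 3 fell without SiC replicate 1. That gene was Tnrc6a, a partner of Argonaute (-0.66 ± 0.136, adjusted p = 0.00704), and the median was -0.17 (-0.08 on slide 1 and -0.19 on slide 2), or -0.05 without Si2AK replicate 2 and -0.10 without NT replicate 3.

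**Figure D5:**
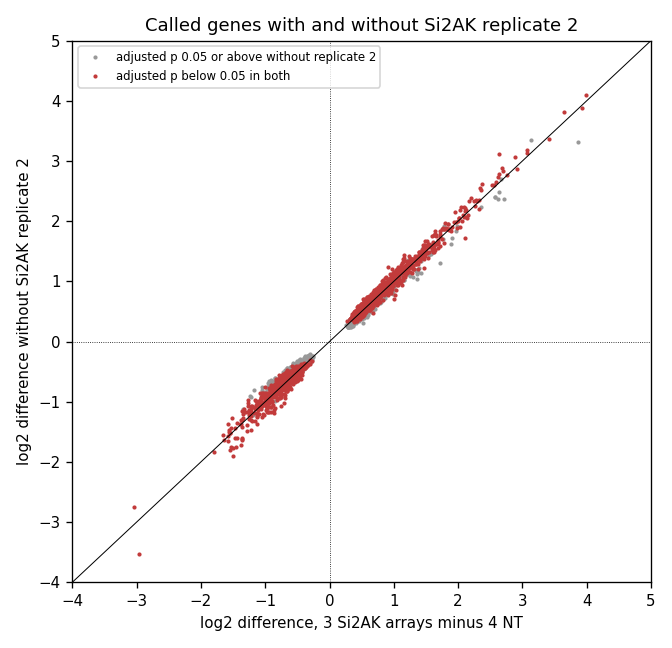
Each point is one of the 2962 called genes, at its log2 difference Si2AK minus NT with all 3 Si2AK arrays (x axis) and without Si2AK replicate 2 (y axis), with the line of equality. Filled red points, 1884 genes, passed at an adjusted p below 0.05 both times, and grey points did not pass without the array.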

How the data were processed

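Total RNA from 14 samples (0.2 µg, RNA integrity number 9) was labelled with Cy3, and 600 ng was hybridised to 1-colour Agilent mouse arrays, per the labels. Per the file headers, Agilent Feature Extraction 10.7.3.1 gave for each spot a processed intensity with background and spatial trends subtracted, raw mean and background intensities, and marks for spots above background, saturated or irregular, with probes placed on mm9. The value table that the authors deposited is on a log2 scale. Its columns each have a median near 6.51 and follow the log2 raw mean signal (r at least 0.991 across spots), and its background step is not given in the sources used here. The submitters' processing notes name limma.

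Spots marked non-uniform or as population outliers were left out, spots of a probe averaged, and log2 processed signal taken minus each array's 75th percentile. Probes well above background on every Si2AK or every NT array were kept (28988), with the brightest probe per gene, giving 20559 genes, 14963 with a symbol. A single value was missing for 257 genes, and no probe was saturated. Names came from RefSeq accessions in a GRCm38.p6 table for 27656 of 55681 probes. Limma 3.58.1 in R 4.3.3 (lmFit, eBayes) was fitted to all 14 arrays, with 10 residual degrees of freedom and Benjamini-Hochberg adjustment over all genes, and a gene was called below 0.05. Fold bounds used the lowest signal well above background on each array. The script was tested on simulated data. The labels do not state that same-numbered arrays were paired, and no pairing was assumed. Deviations of same-numbered arrays from their group means correlated at -0.531, 0.018 and 0.306. Those of Si2AK replicate 2 and NT replicate 1 correlated at 0.714. Si2AK replicate 2, with its raised dim signal, enters the Si2AK mean behind each of these values, so they cannot decide whether arrays were paired. The number of arrays limits precision.

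The members and the 36 gene lists were chosen with earlier results of these data known. Genes were named by rule: the 12 largest rises and falls among genes with a symbol (probes without one, lincRNA regions included, were not eligible), called with and without Si2AK replicate 2 and not overlapping, up to 4 called members per list with the largest differences (the 2 brightest where fewer than 2 were called), and the 4 largest bounds each way. Beside those marked in the text, Dusp6, Dusp7, Spry1, Shmt1, Cdkn1a, Vldlr, Gins3, Oas1a, Psmb9, Xaf1, Nqo1, Id1, Id2 and Id3 were named after their values were seen, as were the genes shown with a promoter. Genes given only to show which members of a list passed or did not pass were also named after the fact. In all, 22 alternative settings were run. Results of some genes are not reported here.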

Additional observations from a re-analysis of the deposited data

Results flagged for a closer look

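Among the 145 named genes, 9 had 1 NT array whose gap to the nearest other NT array took up more of the group's range than Dixon's 95% limit allows, and chance gives this in about 1 in 20 groups of this size. NT replicate 4 was involved in 6 of them. Its level was -0.91 for Hmox1, the inducible haem oxygenase, where the other NT arrays were at 3.15 to 3.18 and the Si2AK arrays at 4.77 to 4.85. The Hmox1 difference was 2.67 ± 0.797 (limma adjusted p = 0.0432) with that array and 1.66 (adjusted p = 0.000194) without it, and the call was lost without any 1 of the Si2AK arrays. NT replicate 4 was also low for Ier3 (5.005) and Gadd45a (1.30), and high for Plk3 (3.31), Sesn2 (1.96) and Pfkm (2.75). NT replicate 3 was high for Nars (4.59) and low for Hsd17b7 (2.78), and NT replicate 1 was high for Ndrg1 (4.81). For all 9 genes the Si2AK and NT arrays did not overlap. That largely follows from the choice of genes, as 137 of the 145 were called and 2917 of all 2962 calls did not overlap. Over all genes the arrays did not overlap for 15.1% with Si2AK higher and 11.8% with Si2AK lower.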

How the results depend on the processing

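The count of higher genes was 1606. It was 280 on slide 1 alone, 439 on slide 2 alone, 941 with no filter on dim probes and 2584 without SiC replicate 1, and without each Si2AK or NT replicate in turn it ran from 1015 to 1351. The count of lower genes was 1356. It was 134 on slide 1 alone, 312 on slide 2 alone and 714 with no filter, and without each replicate in turn it ran from 812 to 1105 (1987 without SiC replicate 1). The slides alone leave fewer arrays and the unfiltered test adds dim genes (34779 tested); otherwise the cause was not tested. The counts stayed within 1.5 times with the 7 arrays alone (1416 and 981, keeping 2173 of 2962 calls), array weights (1779 and 1152), slide as a block (2017 and 1634), normexp (1684 and 1385), quantile normalization (2028 and 1886) and the authors' deposited table (2051 and 1873). With the replicate number as a block they were 1316 and 1062, though whether these numbers mark a pairing is not known. Of 137 named calls, 102 held without each Si2AK or NT array in turn, 116 without Si2AK replicate 2 and 125 with the 7 arrays alone. Itgam reversed to 0.0568 when a gene's probes were averaged and Mmp9 to -0.0285 with normexp, from 1.44; Mmp9 was well above background on no NT array. Low signal limits the size of differences of dim genes such as Tac1, Iapp and Fgf21.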

Other observations

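Several hormone and secretory granule genes rose. Of 28 listed, 14 were tested, 3 rose and 0 fell (median 0.47, 0.15 on slide 1 and 0.81 on slide 2, but 0.07 with normexp and 0.16 in the authors' deposited table). Nppb, the precursor of brain natriuretic peptide, was at 2.06, 2.16, 1.07 and 1.01 in NT and at 3.60, 3.49 and 3.35 in Si2AK, a rise of 1.91 ± 0.341 (limma adjusted p = 0.0032), and the siRNAs differed by 0.28 (adjusted p = 0.651). Pthlh, parathyroid hormone-related protein, rose by 1.02 ± 0.105 (adjusted p = 0.000131), and Si2AK exceeded Si1AK by 0.83 (adjusted p = 0.000425). Of 19 tested heat shock genes, 3 rose and 0 fell, among them the small heat shock genes Cryab (1.83 ± 0.168, adjusted p = 6.39e-05) and Hspb1 (0.66 ± 0.0907, adjusted p = 0.000636), while the list median was -0.07. With Si1AK, Cryab rose by 2.22 (adjusted p = 2.82e-05). Of 24 YAP and TGF-beta targets, 4 rose and 4 fell (median 0.08). The counts of these lists are to be read against 7.81% higher and 6.6% lower over all genes. Thbs1, thrombospondin 1, fell (-1.12 ± 0.15, adjusted p = 0.000542), and Si2AK minus Si1AK was -1.62 (adjusted p = 5.45e-05). The others that fell were Id1, Id2 and Id3, known targets of BMP signalling, at -0.51, -0.71 and -0.40, and the Id1 and Id3 calls were lost without Si2AK replicate 1 or 3 or NT replicate 1 or 2.

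Other lists had few calls, to be read against 7.81% higher and 6.6% lower over all genes. Of 36 NRF2 and glutathione genes, 2 rose and 4 fell (median -0.06), and Nqo1 was at -0.18 (adjusted p = 0.538). Of 33 hypoxia and glycolysis genes, 3 rose and 1 fell. Of 29 cholesterol synthesis genes, 1 rose and 1 fell. Of 20 Notch pathway genes, 2 rose and 2 fell, and of 20 mesenchymal transition genes, 3 rose and 1 fell. These small counts moved with single arrays: without Si2AK replicate 1, 0 Notch genes and 0 mesenchymal genes rose, 1 hypoxia gene rose and 0 fell, and 2 of the YAP and TGF-beta targets fell. Without Si2AK replicate 2, 1 NRF2 gene rose and 2 fell. A probe without a gene name, NAP059116-1 on chromosome 10, 29691283 to 29691342 of mm9, was above background on no NT array and on all 3 Si2AK arrays, at least 4.88-fold higher (adjusted p = 0.0103), a call lost with normexp.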
